A study of Mus musculus with 5 samples.

Results

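Glucose breakdown and glycogen storage were described in cardiac atria through 33 genes of 57186 in the deposited tables. They were chosen by name as enzymes, transporters and regulators of these pathways, no measured value enters the choice rule, and earlier results of these data were known when the pathways were chosen. They cover glucose uptake, each step of glycolysis through lactate, the enzymes that set the level of its fructose bisphosphate activator, and the making and breaking of glycogen. The tissue came from mice with 1 E990G allele of MRC2, an endocytic collagen receptor (MRC2 E990G-het, called het here), and from Wild-type mice (WT). Snap-frozen atria of 3 het animals (het 5, 6 and 7) and 2 WT animals (WT 7 and 8), all of batch 2, were sequenced as polyA libraries, out of a series that describes 7 het and 8 WT animals aged 4 to 10 months. The age and sex of each animal and the strain are not in the labels used here. A whole atrium is a mixture of cardiomyocytes with stromal, vascular and blood cells. How the allele was made is not given in the sources used here.

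Glycolysis splits glucose into pyruvate in the cytosol and yields ATP without oxygen, and lactate dehydrogenase then interconverts pyruvate and lactate. Glycogen is the branched glucose store of muscle, drawn on when work rises. The heart covers most of its energy by burning fatty acids and lactate, with glycolysis as a fast reserve, and striated muscle carries its own isozymes for several of the steps.

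Libraries held 17784601 to 28353091 expected counts, and 16412 genes were tested, all 33 members among them. Ddx3y, on the Y chromosome, gave at most 3 expected counts in het 5, 6 and 7, against 938 in WT 7 and 1 in WT 8. Xist, the RNA of the inactive X chromosome, gave 14417, 13247 and 15280 in het 5, 6 and 7, against 21.5 in WT 7 and 6117 in WT 8. By these counts WT 7 was male and the other libraries female, so sex was not balanced between the groups. Its part in the fold changes was not tested. Mitochondrially encoded genes took 13% to 17.7% of the counts in het libraries and 14.3% to 15% in WT libraries. For transcripts over 2000 bases, the gap between length and effective length, which follows fragment size, was 376, 429 and 394 bases in het 5, 6 and 7, against 342 and 411 bases in WT 7 and 8. Over all genes the edgeR quasi-likelihood test called 490 genes higher and 436 lower in het atria at an adjusted p under 0.05. Those calls rest on all 3 het libraries together: without het 5, 6 or 7 the test called 0, 5 and 0 genes higher and 1, 6 and 0 lower, with 3595, 3139 and 3549 genes at an unadjusted p under 0.05. Across all tested genes the fold change also followed transcript length, with a median log2 fold change of -0.43 in the shortest of 20 length bins and 0.35 in the longest.

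Transcripts of 4 glycolytic genes, of the triose, phosphoglycerate mutase and lactate steps, were lower in het atria, and no glycogen gene was called in either direction. Pgam2, the muscle phosphoglycerate mutase, fell by 42.0%, Aldoa, the muscle aldolase, by 34.3%, Gapdh, which oxidises glyceraldehyde phosphate, by 31.6%, and Ldhb, the heart-type lactate dehydrogenase subunit, by 30.5%. With the length and GC trends of the libraries removed, none of the 4 was called and the log2 fold changes came closer to 0: -0.79 became -0.37 for Pgam2, -0.61 became -0.31 for Aldoa, -0.55 became -0.28 for Gapdh and -0.52 became -0.29 for Ldhb. As tested on the deposited counts, these 4 of 33 members (12.1%) were called lower, where 2.66% of all tested genes were, and 0 members were called higher, where 2.99% of all tested genes were. In bulk tissue, fewer cells of a type and less RNA per cell cannot be told apart. At an unadjusted p under 0.05 in the same test, 10 members (30.3%) were lower and 1 (3.03%) was higher, against 11.9% and 12.9% of all tested genes. The log2 fold change, het over WT, was below 0 for 23 members (69.7%) and above 0 for 10, with a median of -0.22. Over all tested genes it was below 0 for 50.1%, with a median of -0.0014. Library-scaled counts (CPM) of all het libraries lay below both WT libraries for 15 members (45.5%), which held for 21.1% of all tested genes. They lay above for 1 member (3.03%), Phka1, which likewise held for 21.1% of all tested genes. Of the members below in CPM, Slc2a4, Hk1, Pfkm, Eno3, Pkm, Ldha, Pygm and Phkg1 overlapped in TPM.

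The 33 transcripts together made up 0.74%, 0.82% and 0.998% of all TPM, a level per transcript length, in het 5, 6 and 7. In WT 7 and 8 they made up 1.06% and 1.08%. The sums were 7405, 8234 and 9980 TPM in het 5, 6 and 7, against 10569 and 10810 TPM in WT 7 and 8. Het 7 was the nearest of the het libraries to the WT range and het 5 the farthest. Gapdh and Aldoa held the highest levels of all members, and Aldoc, the brain-type aldolase, the lowest. Aldoc stood at 0.36, 0.47 and 0.51 TPM in het 5, 6 and 7, against 0.33 and 0.46 TPM in WT 7 and 8.

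**Figure D1:**
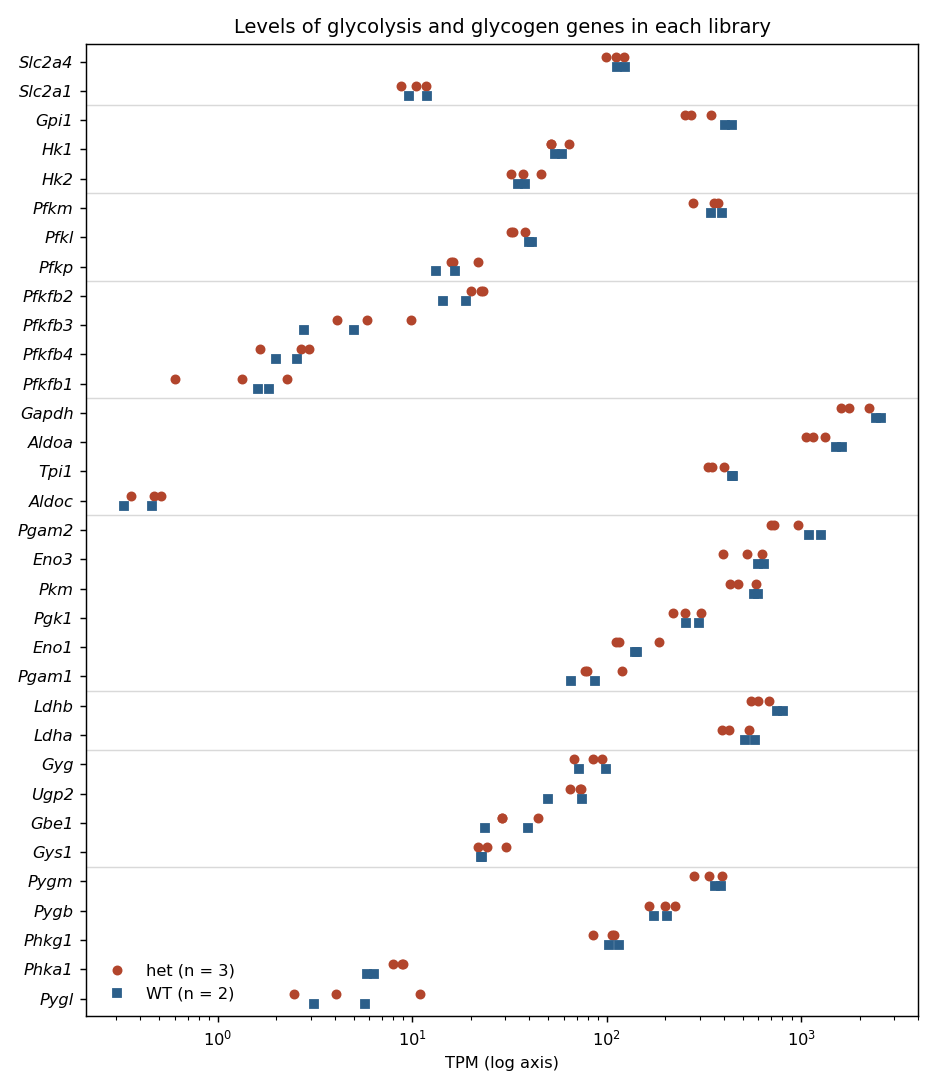
TPM of each of the 33 members in each library on a log axis, grouped by role, with het libraries above WT libraries in the legend. Levels run from below 1 TPM for Aldoc to 2557 TPM for Gapdh in WT 7, and for Gapdh, Aldoa, Pgam2 and Ldhb every het point lies to the left of both WT points.

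Glucose enters muscle cells through transporters. Slc2a4, the insulin-responsive transporter GLUT4, stood at 99, 111.1 and 122.9 TPM in het 5, 6 and 7, against 112.9 and 123.5 TPM in WT 7 and 8. Slc2a1, the basal transporter GLUT1, stood lower, at 8.77, 10.44 and 11.83 TPM in het 5, 6 and 7, against 11.88 and 9.61 TPM in WT 7 and 8. Both ranges overlapped in TPM. Their log2 fold changes of -0.28 (SE 0.14) and -0.19 (SE 0.14) did not pass the edgeR quasi-likelihood test (adjusted p = 0.229 and 0.432).

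Hexokinases trap glucose in the cell by phosphorylating it. Hk1, the hexokinase of most tissues, stood at 51.5, 51.4 and 64.1 TPM in het 5, 6 and 7, against 59.1 and 54.3 TPM in WT 7 and 8. Hk2, the insulin-regulated hexokinase of muscle, stood at 32.1, 37.1 and 46.0 TPM in het 5, 6 and 7, against 34.9 and 38.2 TPM in WT 7 and 8. Het and WT ranges overlapped for both genes in TPM. Gpi1 encodes the isomerase that turns glucose phosphate into fructose phosphate. It stood at 251.3, 271.0 and 342.6 TPM in het 5, 6 and 7, against 440.7 and 404.1 TPM in WT 7 and 8. All het values lay below both WT values, but the log2 fold change of -0.35 (SE 0.14) missed the threshold (edgeR quasi-likelihood adjusted p = 0.130), and with its leading transcript alone it was -0.22.

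Phosphofructokinase commits sugar to glycolysis. Pfkm, its muscle subunit, stood at 278.5, 353.9 and 370.9 TPM in het 5, 6 and 7, against 391.1 and 341.7 TPM in WT 7 and 8, with overlapping ranges. Pfkl, the liver-type subunit, stood at 32.4, 32.9 and 38.1 TPM in het 5, 6 and 7, against 41.5 and 39.6 TPM in WT 7 and 8. Pfkp, the platelet-type subunit, stood at 15.9, 16.1 and 21.9 TPM in het 5, 6 and 7, against 16.7 and 13.3 TPM in WT 7 and 8. Of the 3 subunits, Pfkl alone had every het library below both WT libraries in TPM, while in CPM Pfkm did too. The log2 fold change of Pfkl, -0.48 (SE 0.13), was just outside the threshold (edgeR quasi-likelihood adjusted p = 0.051). It was -0.40 once the length and GC trends were removed.

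The Pfkfb genes encode enzymes that make and remove the fructose bisphosphate that switches phosphofructokinase on. Pfkfb2, the heart-type enzyme, stood at 23.2, 22.6 and 20.1 TPM in het 5, 6 and 7, against 19.0 and 14.4 TPM in WT 7 and 8, so every het library was above both WT libraries in TPM, while in CPM the groups overlapped. The log2 fold change of 0.24 (SE 0.14) was not called (edgeR quasi-likelihood adjusted p = 0.301). Pfkfb3, the inducible form, ranged over 4.10 to 9.91 TPM in het libraries and 2.79 to 5.00 TPM in WT libraries, with the highest value in het 6. Pfkfb1 and Pfkfb4 stayed below 3 TPM in every library. The 4 genes summed to 29.5, 37.5 and 30.2 TPM in het 5, 6 and 7, against 28.3 and 20.8 TPM in WT 7 and 8.

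Aldolase cleaves the hexose into trioses, Tpi1 interconverts them and Gapdh oxidises the product. Aldoa stood at 1058, 1155 and 1319 TPM in het 5, 6 and 7, against 1516 and 1621 TPM in WT 7 and 8. Gapdh, widely used as a reference transcript, stood at 1609, 1753 and 2222 TPM in het 5, 6 and 7, against 2557 and 2418 TPM in WT 7 and 8. For both genes every het library was below both WT libraries, with het 7 the highest of the het libraries. In CPM, the scale behind the test, Aldoa averaged 1252 ± 66.2 over the 3 het libraries and 1906 ± 181 over the 2 WT libraries (mean ± SD). Aldoa fell by 0.61 on the log2 scale (SE 0.14, adjusted p = 0.035 by edgeR quasi-likelihood). Gapdh averaged 1868 ± 203 CPM over the het libraries and 2732 ± 21.0 CPM over the WT libraries. Gapdh fell by 0.55 (SE 0.15, adjusted p = 0.049 by edgeR quasi-likelihood). Tpi1, between them in the pathway, stood at 332.4, 347.2 and 401.2 TPM in het 5, 6 and 7, against 442.6 and 443.3 TPM in WT 7 and 8. The groups did not overlap for Tpi1 either, and its log2 fold change of -0.47 (SE 0.13) narrowly missed the threshold (edgeR quasi-likelihood adjusted p = 0.054). Gapdh, Pgam1 and Eno1 have near-identical copies in the mouse genome among which RSEM divides reads, so their levels are uncertain. Such copies were not examined here, for these genes or for the other members.

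Phosphoglycerate mutase moves the phosphate along the triose before enolase acts. Pgam2 stood at 698.0, 723.6 and 966.5 TPM in het 5, 6 and 7, against 1099 and 1270 TPM in WT 7 and 8. All het values were below both WT values. It averaged 354.8 ± 53.2 CPM over the het libraries and 612.2 ± 53.0 CPM over the WT libraries (SD, n = 3 and 2). Its log2 fold change of -0.79 (SE 0.15) and edgeR quasi-likelihood adjusted p of 0.024 were the lowest of the 33 members. Without the length and GC trends the value was -0.37 and not called, and Pfkl, at -0.40, was lower. Pgam1, the form of most other tissues, stood at 78.7, 77.3 and 120.4 TPM in het 5, 6 and 7, against 65.7 and 87.4 TPM in WT 7 and 8, with overlapping ranges and a log2 fold change of 0.08 (SE 0.20). Pgam2 held 89.9%, 90.4% and 88.9% of the summed TPM of both genes in het 5, 6 and 7, against 94.4% and 93.6% in WT 7 and 8. These shares did not overlap, but the log2 ratio, lower by 0.83 in het, has an exact two-sided permutation p of 0.2, the smallest that this form of the test gives for 3 against 2 libraries.

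The Pgam pair is shown by promoter because its members lay apart in these libraries while catalysing the same step. Letters are the 250 bases before each start in RefSeq (GRCm38.p6), on the strand of the gene, at chr11:5803797-5804046 (minus strand) for Pgam2 and chr19:41911621-41911870 (plus strand) for Pgam1. Capitals mark the consensus binding motif of the muscle factor MEF2 in Pgam2, and ACGTG, the core of the hypoxia response element, in Pgam1.
Pgam2 promoter: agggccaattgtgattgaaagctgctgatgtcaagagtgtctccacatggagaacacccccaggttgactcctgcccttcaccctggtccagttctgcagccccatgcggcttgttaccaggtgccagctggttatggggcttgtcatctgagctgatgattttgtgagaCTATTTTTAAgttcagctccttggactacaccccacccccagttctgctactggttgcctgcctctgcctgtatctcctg
Pgam1 promoter: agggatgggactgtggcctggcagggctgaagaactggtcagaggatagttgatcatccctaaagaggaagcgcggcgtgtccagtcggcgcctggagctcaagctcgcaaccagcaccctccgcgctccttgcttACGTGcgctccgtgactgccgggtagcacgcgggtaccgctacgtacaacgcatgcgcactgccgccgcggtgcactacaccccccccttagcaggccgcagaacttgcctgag
Both strands were searched, in 250 bases before each start. The MEF2 motif, a pattern searched by its published consensus, stood in 2.92% of 32851 promoters and, of 32 members with a promoter entry, in those of Pgam2 and Pfkfb1. ACGTG stood in 16.6% of all promoters and in 18 of 50 member promoters (36.0%), which belong to 14 of 32 members and, among the 4 called genes, to Aldoa. CACGTG, an E-box that contains ACGTG, stood in 6.02% of all promoters and in those of Ldha, Pfkfb2, Pfkfb3 and Pfkm.

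Enolase makes phosphoenolpyruvate. Eno3, its muscle form, stood at 396.4, 524.8 and 626.6 TPM in het 5, 6 and 7, against 601.5 and 643.7 TPM in WT 7 and 8. Eno1, the form of most tissues, stood at 112.2, 116.2 and 185.3 TPM in het 5, 6 and 7, against 139.0 and 143.3 TPM in WT 7 and 8. Het 7 was inside or above the WT range for both genes in TPM, and neither was called: the log2 fold changes were -0.48 (SE 0.15) for Eno3 and -0.29 (SE 0.19) for Eno1 (edgeR quasi-likelihood adjusted p = 0.080 and 0.386). Pgk1, which makes ATP one step earlier than the mutase, had overlapping ranges of 220.0 to 303.3 TPM in het libraries and 256.7 to 298.3 TPM in WT libraries.

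Pyruvate kinase makes the last ATP of the pathway. Pkm stood at 431.9, 472.3 and 581.7 TPM in het 5, 6 and 7, against 602.4 and 570.9 TPM in WT 7 and 8, with het 7 inside the WT range. It was not called, with a log2 fold change of -0.42 (SE 0.14, edgeR quasi-likelihood adjusted p = 0.088). The gene is spliced to M1, the form of adult muscle and brain, or to M2, the form of embryonic and proliferating cells, by the choice of 1 of a pair of neighbouring exons. The exons are shown because they are what tells the forms apart. They are given from GENCODE vM21 (GRCm38) at chr9:59675029-59675195 for M1 and chr9:59675568-59675734 for M2, on the plus strand, with capitals for the 64 of 167 bases that differ.
Pkm M1 exon: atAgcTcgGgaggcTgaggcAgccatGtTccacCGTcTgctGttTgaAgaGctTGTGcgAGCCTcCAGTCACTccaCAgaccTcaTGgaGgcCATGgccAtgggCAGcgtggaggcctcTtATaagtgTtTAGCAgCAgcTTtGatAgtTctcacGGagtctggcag
Pkm M2 exon: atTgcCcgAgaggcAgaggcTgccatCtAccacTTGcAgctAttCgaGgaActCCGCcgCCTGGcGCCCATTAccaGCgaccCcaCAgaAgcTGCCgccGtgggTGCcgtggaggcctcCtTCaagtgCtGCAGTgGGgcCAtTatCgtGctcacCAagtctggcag
The exons are 61.7% identical over their length. The M1 transcript held 75.6%, 78.5% and 77.2% of Pkm in het 5, 6 and 7, against 71.5% and 76.5% in WT 7 and 8. The M2 transcript held 21.6%, 19.3% and 21.0% in het 5, 6 and 7, against 26.6% and 22.5% in WT 7 and 8. M1 was the leading form in all 5 libraries. Its shares overlapped between groups (exact two-sided permutation p = 0.4), while those of M2 were lower in every het library (exact two-sided permutation p = 0.2, the smallest possible).

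Lactate dehydrogenase is built from heart-type (Ldhb) and muscle-type (Ldha) subunits. Ldhb stood at 554.2, 601.8 and 680.0 TPM in het 5, 6 and 7, against 751.5 and 806.9 TPM in WT 7 and 8, without overlap. It averaged 518.0 ± 26.0 CPM over the het libraries and 744.8 ± 59.6 CPM over the WT libraries (SD, n = 3 and 2), and fell by 0.52 on the log2 scale (SE 0.13, edgeR quasi-likelihood adjusted p = 0.044). Ldha stood at 390.8, 424.9 and 540.1 TPM in het 5, 6 and 7, against 514.5 and 580.2 TPM in WT 7 and 8, where het 7 lay inside the WT range. Ldha was not called, at a log2 fold change of -0.46 (SE 0.15, edgeR quasi-likelihood adjusted p = 0.083). The balance of the subunits overlapped between groups, with Ldha at 42.3% ± 1.67 of both in het (SD, n = 3) and 41.2% ± 0.84 in WT (n = 2). The log2 ratio of Ldha to Ldhb differed by 0.07 (exact two-sided permutation p = 0.6).

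Glycogen is started on glycogenin (Gyg), built by glycogen synthase (Gys1) and the branching enzyme (Gbe1) from the UDP-glucose that Ugp2 makes. None of the 4 genes was called, with log2 fold changes of -0.24 for Gyg, 0.02 for Gys1, 0.08 for Gbe1 and 0.04 for Ugp2. Gyg, the highest of them, stood at 67.6, 85.0 and 94.2 TPM in het 5, 6 and 7, against 72.4 and 98.8 TPM in WT 7 and 8. The ranges of all 4 genes overlapped in TPM and in CPM. Their sum was 183.0, 212.3 and 241.8 TPM in het 5, 6 and 7, against 168.7 and 235.3 TPM in WT 7 and 8.

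Glycogen is broken down by phosphorylases under the control of phosphorylase kinase. Pygm, the muscle phosphorylase, stood at 281.7, 335.2 and 389.7 TPM in het 5, 6 and 7, against 384.8 and 360.2 TPM in WT 7 and 8. Pygb, the brain-type form, stood at 164.1, 198.0 and 224.0 TPM in het 5, 6 and 7, against 204.3 and 175.6 TPM in WT 7 and 8. Both ranges overlapped. Pygl, the liver-type form, stood at 2.47, 4.05 and 10.99 TPM in het 5, 6 and 7, against 5.71 and 3.13 TPM in WT 7 and 8. Het 7, its highest library, also had the highest summed adipocyte markers (417 CPM, against 195 to 370 CPM in the other 4 libraries). The sum of 370 CPM was that of WT 8, where Pygl was 3.13 TPM. Cfd, Cidec and Retn were higher in WT 8 than in het 7, and Plin4 was highest in het 6. The other adipocyte markers were highest in het 7. Whether these values are linked was not tested. Pygm held 62.8%, 62.4% and 62.4% of the summed phosphorylase TPM in het 5, 6 and 7, against 64.7% and 66.8% in WT 7 and 8 (exact two-sided permutation p = 0.2, the smallest possible).

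Phka1, the muscle regulatory subunit of phosphorylase kinase, lay higher in the het libraries than in the WT libraries. It stood at 7.94, 8.86 and 8.99 TPM in het 5, 6 and 7, against 6.38 and 5.84 TPM in WT 7 and 8, without overlap. The log2 fold change of 0.36 (SE 0.12) was not called (edgeR quasi-likelihood adjusted p = 0.093). Phka1 has the longest transcripts of the 33 members (5938 bases on average), and with the length and GC trends removed its value was 0.11. With its leading transcript alone the value was 0.10, and in the authors' own deposited comparison it was -0.15. Phkg1, the muscle catalytic subunit, had a log2 fold change of -0.23 (SE 0.13).

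**Figure D2:**
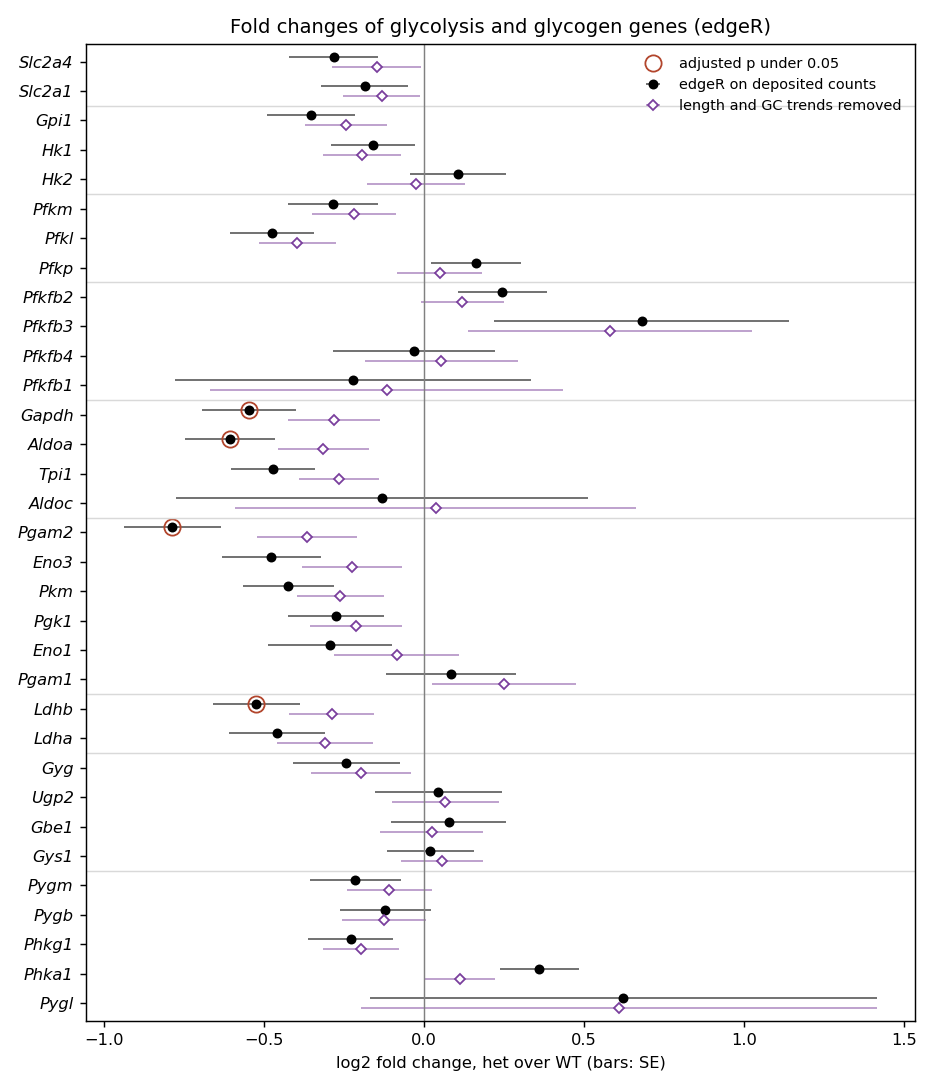
Log2 fold change, het over WT, of each member with its standard error from the edgeR fit, beside the value with length and GC trends removed. Pgam2, Aldoa, Gapdh and Ldhb are the members called lower, and each moves toward 0 once the trends are removed.

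The 4 called genes are among the shortest members. Transcripts averaged 840 bases for Pgam2, 1233 for Ldhb, 1379 for Gapdh and 1454 for Aldoa. Over the 33 members, log2 transcript length and log2 fold change had a Pearson r of 0.67 and a Spearman rho of 0.69, against a Pearson r of 0.23 over all tested genes. These points are genes of the same 5 libraries and not independent replicates. The 11 shortest members, of 840 to 1715 bases, had a median log2 fold change of -0.47 and all 11 were below 0. The 3683 tested genes of that length range had a median of -0.25, and 5.46% of them were called lower. The 11 members of middle length had a median of -0.21, where all genes of their range had -0.04. The 11 longest, of 2873 to 5938 bases, had a median of 0.02, where all genes of their range had 0.17. In each of these groups the members' median thus lay below that of genes of like length, and 23 of 33 members lay below the line through the medians of 20 length bins, with a median distance of -0.17.

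**Figure D3:**
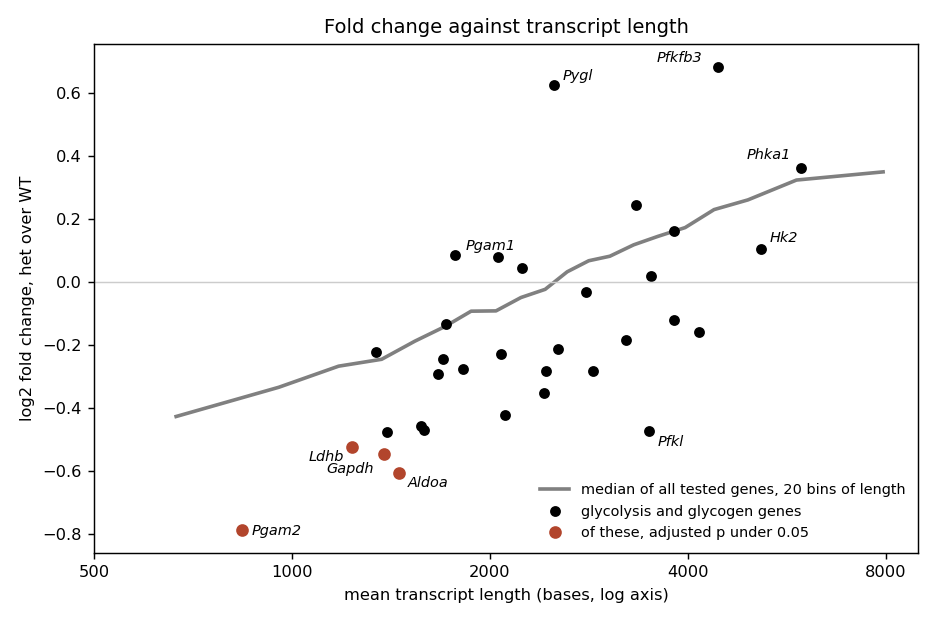
Log2 fold change, het over WT, against mean transcript length on a log axis for the 33 members, with the median of all tested genes in 20 length bins. The median of all genes runs from -0.43 in the shortest bin to 0.35 in the longest, and 23 of the 33 members lie below that line.

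With the length trend of each library removed, 0 members were called, where 0.317% of all tested genes were called higher and 0.177% lower. With length and GC trends removed, 0 members were called in the edgeR quasi-likelihood test, where 0.349% of 16061 genes were called higher and 0.162% lower. The adjusted p was then 0.322 for Pgam2, 0.351 for Aldoa, 0.415 for Gapdh and 0.362 for Ldhb. The members' median was -0.13, against 0.04 over all genes in that fit, and 22 of 33 were below 0. At an unadjusted p under 0.05 there, 3 members (9.09%) were lower and 0 higher, against 5.15% and 8.72% of all genes. A relation to length remained after this removal. The median log2 fold change of all genes still ran from -0.07 in the shortest length bin to 0.20 in the longest. Over the members, log2 length and log2 fold change still had a Pearson r of 0.43 and a Spearman rho of 0.52.

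Calls among the members were also lost whichever library was left out. Without het 5, het 6 or het 7, 0 members were called by the edgeR quasi-likelihood test, and the log2 fold change ranged over -0.91 to -0.69 for Pgam2, -0.65 to -0.58 for Aldoa, -0.64 to -0.49 for Gapdh and -0.57 to -0.49 for Ldhb. Without WT 7, Pgam2 (-0.87) and Aldoa (-0.70) were called and Gapdh (-0.55) and Ldhb (-0.60) were not, and without WT 8, Pgam2 (-0.68) was called and Aldoa (-0.49), Gapdh (-0.53) and Ldhb (-0.43) were not. Over all 17 alternatives the adjusted p ranged over 1.16e-04 to 0.322 for Pgam2, 1.98e-04 to 0.351 for Aldoa, 0.0023 to 0.415 for Gapdh and 0.0012 to 0.362 for Ldhb. The sign of these 4 genes did not turn in any of them. DESeq2, a second count test, called 10 members lower (30.3%) and 0 higher, against 4.75% and 5.28% of all tested genes.

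Within the 8 isozyme pairs, the ratio of muscle to other isozyme lay lower in every het library for 3: Pgam2 to Pgam1, Aldoa to Aldoc, and Pygm to Pygb and Pygl. Of all tested genes, 21.1% lay below WT in every het library in CPM. A like share for ratios is not given here. The log2 ratio of Aldoa to Aldoc differed by -0.56 and rests on Aldoc levels under 1 TPM, and that of Pygm differed by -0.20. Those of Slc2a4 to Slc2a1 (-0.04), Hk2 to Hk1 (0.09), Pfkm to Pfkl and Pfkp (-0.05), Eno3 to Eno1 (-0.22) and Ldha to Ldhb (0.07) overlapped between groups. After adjustment over the 8 pairs, the lowest exact permutation p was 0.533, and the design cannot pass 0.05. The value for Pfkm turned to 0.15 when only leading transcripts were used.

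**Figure D4:**
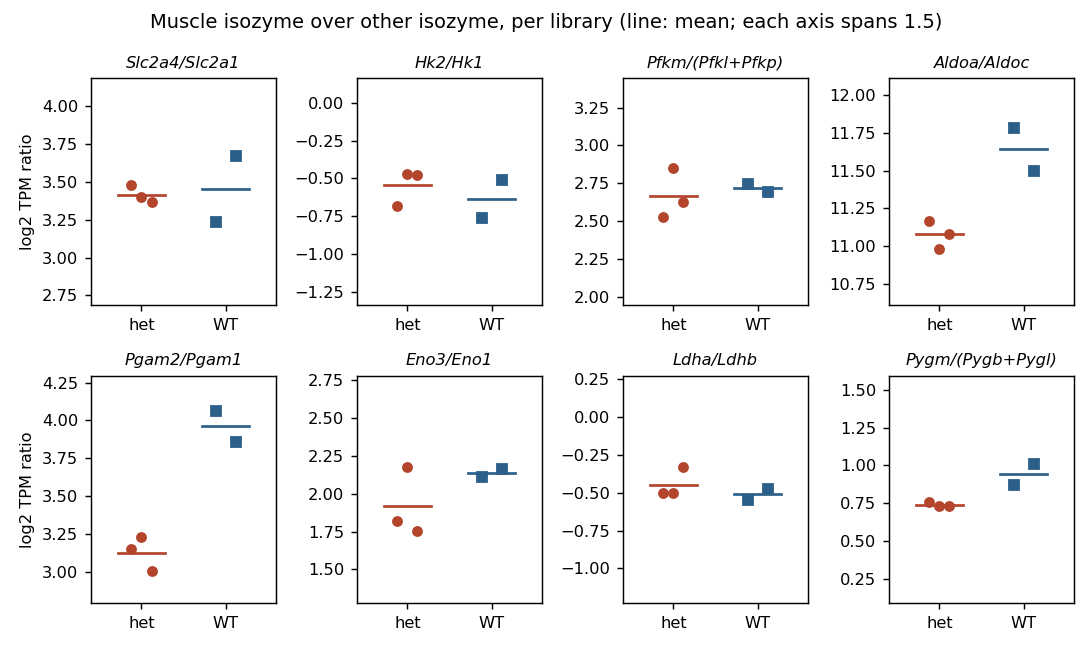
Log2 ratio of muscle isozyme to other isozyme in each library for the 8 pairs, in TPM, het points left of WT points. The Pgam2 to Pgam1 ratio is 3.0 to 3.23 in het libraries and 3.86 to 4.06 in WT libraries.

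Transcript shares are the authors' isoform percent. Among the forms whose het and WT shares did not overlap, the difference was largest for a form of Gpi1. ENSMUST00000205870, a 933-base form annotated in GENCODE vM21 as subject to nonsense-mediated decay, held 11.1%, 0% and 13.6% of Gpi1 in het 5, 6 and 7, against 36.7% and 34.3% in WT 7 and 8. It rested on 354, 0 and 696 expected counts in het 5, 6 and 7, against 2446 and 1474 in WT 7 and 8. The full-length ENSMUST00000038027 held 80.8%, 90.2% and 76.5% in het 5, 6 and 7, against 58.3% and 58.4% in WT 7 and 8. The groups did not overlap for either form (exact two-sided permutation p = 0.2 each, the smallest possible).

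Short forms did not lie on 1 side. Of 15 forms under 1000 bases with a mean share of at least 5% that are not their gene's only form, 4 had every het share below both WT shares, 2 had every het share above, and 9 overlapped. A like count over all transcripts is not given here, so these counts have no background beside them. The forms described here were singled out after their values were seen. A 532-base retained-intron form of Pygm, ENSMUST00000139775, held 9.07%, 9.45% and 9.65% in het 5, 6 and 7, against 13.6% and 17.6% in WT 7 and 8. A 594-base form of Hk2, ENSMUST00000168725, held 1.48%, 0% and 3.77% in het 5, 6 and 7, against 16.2% and 13.2% in WT 7 and 8, on at most 37.3 expected counts in any library. A 773-base form of Eno1, ENSMUST00000133839, was higher in every het library, at 28.1%, 31.0% and 24.4% in het 5, 6 and 7, against 20.4% and 21.6% in WT 7 and 8. So was a 670-base form of Eno3, ENSMUST00000157027, at 7.67%, 7.68% and 7.86% in het 5, 6 and 7, against 4.5% and 5.62% in WT 7 and 8. For Gapdh the leading ENSMUST00000118875 held 90.1%, 98.2% and 91.9% in het 5, 6 and 7, against 84.2% and 81.4% in WT 7 and 8. With the leading transcript alone, the log2 fold change of Gapdh was -0.42 and was no longer called (edgeR quasi-likelihood adjusted p = 0.098). The leading share was compared in 16 members, and none had an adjusted exact permutation p under 0.914.

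**Figure D5:**
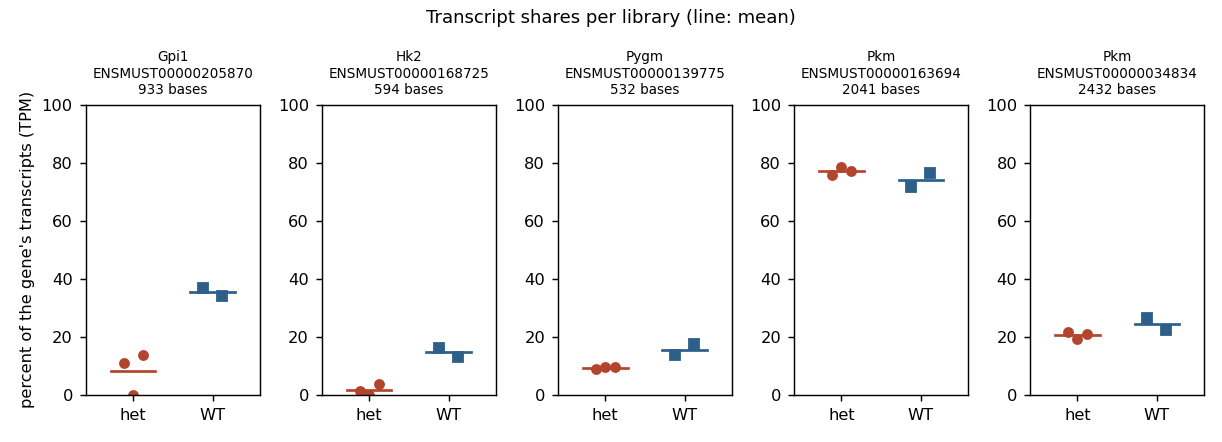
Isoform percent in each library of short forms of Gpi1, Hk2 and Pygm and of the M1 (2041 bases) and M2 (2432 bases) transcripts of Pkm, het points left of WT points, with a line at each mean. The Gpi1 form of 933 bases is at 0% to 13.6% in het libraries and 34.3% to 36.7% in WT libraries.

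The authors' deposited table, their own limma comparison, lists all 33 members with log2 fold changes of -0.50 (Hk1) to 0.86 (Hk2) and a median of -0.05. Over all 14927 genes in the authors' deposited table the median was -0.03. Of the members, 14 were above 0 in the authors' deposited table and 19 below. The called genes had log2 fold changes in the authors' deposited table of 0.02 for Pgam2, 0.08 for Aldoa, -0.02 for Gapdh and -0.10 for Ldhb. Hk2 was the 1 member whose interval in the authors' deposited table, 0.03 to 1.68, excluded 0, with an adjusted p of 0.683. No gene passed 0.05 there, the smallest adjusted p in the authors' deposited table being 0.277. Which animals entered it is not given in the sources used here, and it may share these libraries, so its values stand beside those above and are not a separate check.

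Of 56 other genes of glucose and glycogen metabolism and its regulation, 48 were tested, 2 were called higher (4.17%) and 1 lower (2.08%), against 2.99% and 2.66% of all tested genes, with a median log2 fold change of 0.10. Prkaa2, a catalytic subunit of the energy sensor AMPK, stood at 20.2, 19.4 and 21.9 TPM in het 5, 6 and 7, against 10.4 and 12.95 TPM in WT 7 and 8, and rose by 0.66 on the log2 scale (SE 0.16, edgeR quasi-likelihood adjusted p = 0.035). Gsk3b, a kinase that inhibits glycogen synthase, stood at 8.06, 9.38 and 9.30 TPM in het 5, 6 and 7, against 6.16 and 5.44 TPM in WT 7 and 8, and rose by 0.50 (SE 0.13, edgeR quasi-likelihood adjusted p = 0.041). For both kinases every het library was above both WT libraries. Ldhd, the mitochondrial D-lactate dehydrogenase, stood at 10.4, 14.7 and 14.7 TPM in het 5, 6 and 7, against 17.9 and 16.8 TPM in WT 7 and 8, and fell by 0.56 (SE 0.15, edgeR quasi-likelihood adjusted p = 0.044). Prkaa2 and Gsk3b have long transcripts of 7969 and 8047 bases, Ldhd of 2587. With the length and GC trends removed the values were 0.42, 0.24 and -0.47, and 0 of these genes were called, with a lowest edgeR quasi-likelihood adjusted p of 0.142.

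Some sums of cell type markers lay apart between the groups. In CPM, 21.1% of all tested genes lay below WT in every het library, and 21.1% lay above. Of all tested genes, 2.99% were called higher and 2.66% lower. The 11 cardiomyocyte markers summed to 71240, 68181 and 77304 CPM in het 5, 6 and 7, against 94090 and 98274 CPM in WT 7 and 8, with Myl4, Tnni3 and Nppa called lower and Ryr2 higher. Their median log2 fold change was -0.39. Ttn, not called, was higher in every het library, at 3447 to 4141 CPM in het and 2985 to 3132 CPM in WT. The length trend was not removed from any of the marker sums. The 14 skeletal muscle markers summed to 277, 232 and 263 CPM in het 5, 6 and 7, against 446 and 435 CPM in WT 7 and 8. Most of that was Myl1, at 192 to 238 CPM in het and 386 to 395 CPM in WT, and the defining Myh1, Myh2, Myh4, Mylpf and Tnnc2 were too low to be tested. Smooth muscle markers (6 genes, 1 called lower) also had a lower sum in every het library, at 462 to 532 CPM in het and 557 to 591 CPM in WT. Their median log2 fold change was -0.71. Rgs5 went the other way, at 213 to 239 CPM in het and 160 to 193 CPM in WT. Macrophage markers (10 genes, 2 called higher) were higher, at 526 to 747 CPM in het and 452 to 489 CPM in WT, as were erythroid markers (7 genes, 0 called), at 2592 to 5278 CPM in het and 600 to 2229 CPM in WT. Sums of ventricular, adipocyte, fibroblast, endothelial, Schwann and mesothelial markers overlapped between groups. Among these markers, Myh7 (ventricular) and Egfl7 (endothelial) were called lower and Lum (fibroblast) higher. The part of cell types in the lower glycolytic transcripts was not tested.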

How the data were processed

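The submitters' processing notes name Trim Galore, FastQC, MultiQC, STAR, RSEM, SAMtools, edgeR and limma, and GRCm39 as the build, with no versions. Per the file headers, the deposited gene and transcript tables give expected counts, which the authors estimated with RSEM and left unnormalized. TPM values in those deposited files were scaled by the authors to effective length and library total. Isoform percent, the share of a gene's TPM, is also the authors' value. A further deposited file holds log2 fold changes, p-values and moderated t scores of the comparison the authors made.

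Sample titles gave the groups, and the edgeR p-values weigh the difference between groups against the spread between these animals' libraries. Rounded expected counts were passed through edgeR's default filter (16412 genes kept), TMM scaling and a robust quasi-likelihood fit, with Benjamini-Hochberg adjustment over all tested genes. Calls were made at 0.05. Offsets for length and GC trends were fitted per library with mgcv. Isozyme ratios used log2(TPM + 0.1). Single values were compared by an exact two-sided permutation test over libraries, which doubles the one-sided p, so that its smallest p is 0.2. Depths of 17784601 to 28353091 expected counts set the counting precision.

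The members and lists were chosen with earlier results of these data known. Every member is accounted for. Values in each library are given for called members, both sides of the isozyme pairs, the member of the highest level in a role without a call, and called genes of the other pathway list. Tpi1, Pkm, Phka1 and the transcripts named were added after their values were seen. Symbols came from the authors' table for 32 members and from a gene name table for 1. GENCODE vM21 transcripts and RefSeq promoters are of GRCm38, a build other than the submitters'. The alternatives tried were other scalings and filters, DESeq2, limma-voom, log2(TPM + 1) or log2(TPM + 0.1) under limma-trend, trend removal, leading transcripts (chosen after seeing the data) and each library left out.

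On simulated counts of 16330 genes for het against WT, 200 of them changed, the fit recovered 66% of changes of 1 and 100% of changes of 2 on the log2 scale, with 11 false calls among 177. The simulation gave all genes a common dispersion and no length or GC trend, and changed only genes with higher counts. It therefore does not show how the fit performs under the length trend of these libraries. Versions were edgeR 4.0.16, DESeq2 1.42.0, limma 3.58.1 and mgcv 1.9.3 in R 4.3.3.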

Additional observations from a re-analysis of the deposited data

How the results depend on the processing

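The number of members called lower, 4, was 0 with the length trend removed, 0 without length and GC trends, 0 on log2(TPM + 1), 0 on log2(TPM + 0.1), 10 with DESeq2 and 0 to 2 with each library left out. Leaving out a WT library leaves 1, which is assumed to vary like the het libraries. Over all genes, 490 were called higher and 436 lower, and the counts were 795 higher with library size alone as scaling, 327 higher and 568 lower with upper-quartile scaling, 1304 and 907 with every gene with a count tested, 52 and 29 with the length trend removed, 56 and 26 without length and GC trends, 867 and 780 with DESeq2, 4 and 4 on log2(TPM + 1), 15 and 7 on log2(TPM + 0.1), and 0 to 588 and 0 to 290 with each library left out. The TPM fits moved the median of all genes by 0.14 and 0.15 on the log2 scale. Of 33 members, 22 kept their sign in all 17 alternatives, and the members' median ran from -0.31 to -0.07. The 11 that turned were uncalled, with log2 fold changes of -0.24 (Gyg) to 0.62 (Pygl). Outside left-out libraries these were Pfkfb4 (0.013 with library size alone, 0.019 with every gene, 0.054 without length and GC trends, 0.049 and 0.059 in the TPM fits), Gys1 (-0.025 with upper-quartile scaling, -1.98e-04 with a mean of at least 1 CPM, -0.045 without the length trend), Hk2 (-0.083 without the length trend, -0.026 without length and GC trends), Aldoc (0.0070 without the length trend, 0.036 without length and GC trends, 0.15 with its leading transcript, 0.053 and 0.15 in the TPM fits), Gbe1 (-0.12 with its leading transcript) and Pygb (0.033 in both TPM fits). With each library left out, log2 fold changes ranged over -0.32 to 0.17 for Aldoc, -0.62 to 0.19 for Pfkfb1, -0.16 to 0.13 for Pfkfb4, -0.15 to 0.39 for Pgam1, -0.091 to 0.10 for Gys1, -0.28 to 0.95 for Pygl, -0.058 to 0.30 for Hk2, -0.22 to 0.46 for Gbe1, -0.29 to 0.50 for Ugp2 and -0.49 to 0.074 for Gyg. Differences in log2 ratio ranged over -0.25 to 0.18 for Slc2a4 to Slc2a1, -0.034 to 0.22 for Hk2 to Hk1 and -0.14 to 0.019 for Pfkm to Pfkl and Pfkp, whose value with leading transcripts was 0.15. Differences in leading transcript share, in percentage points, ranged over -4.04 to 1.89 for Eno1, -5.46 to 1.14 for Eno3, -0.66 to 2.38 for Ldhb, -33.1 to 14.4 for Pfkfb1, -3.88 to 3.48 for Pfkfb2, -20.0 to 9.21 for Pfkfb3, -3.24 to 38.4 for Pygl, -2.70 to 8.26 for Phkg1, -6.96 to 2.66 for Gbe1 and -1.74 to 2.02 for Ugp2, and by expected counts were 3.76 for Eno1 and -1.65 for Ugp2. Beyond trend removal, left-out libraries and alternatives that test other genes, the cause of these changes was not tested. No paired analysis was made because the labels used here name no pairs of animals. With 3 against 2 libraries, an exact test cannot pass 0.05, and low genes such as Aldoc and Pfkfb1 rest on few counts.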
